A study of Mus musculus with 4 samples.

Results

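A set of 10 genes best known from tissues other than blood was followed in RNA-seq of mouse hematopoietic stem and progenitor cells (HSPCs) with and without Chaf1b. The genes were Mal2, Cldn3, Slc5a5, Vat1l, Tub, Ryr2, Fbp1, Fbp2, Col4a2 and 1700007K13Rik, out of 43629 gene identifiers counted, of which 33068 carry a symbol. They were chosen by their counts in these same libraries, few or none in control and more in both deleted libraries. The difference between the groups therefore describes how they were picked, and no test of it is given. All libraries came from CD117+ HSPCs of C57Bl/6 mice homozygous for a floxed Chaf1b allele (Chaf1b fl/fl), cultured with stem cell factor, IL3, IL6 and low-density lipoprotein. The 2 control libraries are from cells that received the empty MIGR1 retrovirus, and the 2 deleted libraries, labelled Chaf1b (-/-), from cells that received MIGR1-Cre. Cells that carried the vector were sorted by its eGFP, and the treatment lasted 48 h. CD117 enrichment gives a mixture of progenitors, the Cre came from a retrovirus, and neither the animals nor the cultures behind each replicate number are given, so the spread between the control replicates may be technical. In bulk RNA, more cells expressing a gene and more RNA per cell cannot be told apart.

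Chaf1b encodes the middle subunit of CAF-1, the chaperone that places histones H3 and H4 on newly copied DNA. By packing DNA behind the replication fork it helps dividing cells keep the chromatin, and so the silent genes, of their lineage. Genes of epithelium, thyroid, liver, muscle or nerve are normally silent or nearly so in blood progenitors, which makes their transcripts a sensitive readout on a low background.

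The libraries hold between 18468637 and 25409926 counts on genes. Levels are given as CPM, the share of those counts held by a gene, in parts per 1000000. Chaf1b itself had 80.3 and 57.9 CPM in the control libraries and 16.1 and 17.9 CPM in the deleted ones, so transcript remained. Kit, which encodes CD117, was at 109 and 124 CPM in control and at 95.6 and 124 CPM in deleted HSPCs. Deleted replicate 1 stood apart, with 7905 counts of Xist against 23 to 33 in the other libraries, 3 counts over the Y-linked genes against 5805 to 7771, and 1059 CPM over 8 interferon-stimulated genes against 59.3 to 88.8 CPM. By their Xist and Y-linked counts, the deleted libraries did not come from the same animals. Control replicate 1 had at least 1 count for 39.7% of 1036 olfactory receptor genes, and the other libraries for 4.05 to 11.8%. Across the 16500 genes tested by edgeR's quasi-likelihood test, 62 were called changed at a 1.5-fold or greater difference and an adjusted p-value below 0.05, of which 61 were higher after deletion and 1, Chaf1b, was lower.

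The 10 genes ranged from nearly silent to low in control HSPCs. The fitted log2 fold changes ran from 2.33 to 8.15, with a median of 4.96, against a median of -0.03 over all genes tested. Each gene had more CPM in both deleted libraries than in either control library, and all 10 were among the 61 genes called higher. With scaling to library size only, 5 of the 10 were called, with the replicate number as a block 0, and with a filter of 10 counts in every library 0 of the 2 that were kept. The background is 0.376% of all tested genes called in either direction, 0.37% called higher and 21.4% with both deleted libraries above both controls, and nothing is read from the members' counts, since the choice fixed them. By size of fold change among the 61 genes, Mal2, Cldn3, Ryr2 and 1700007K13Rik held ranks 2 to 5, and Col4a2 held rank 44. Mal2, Cldn3 and 1700007K13Rik, 3 of the 10, had no more than 3 counts in either control library, and 7 of the 10 had no more than 7.

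**Figure D1:**
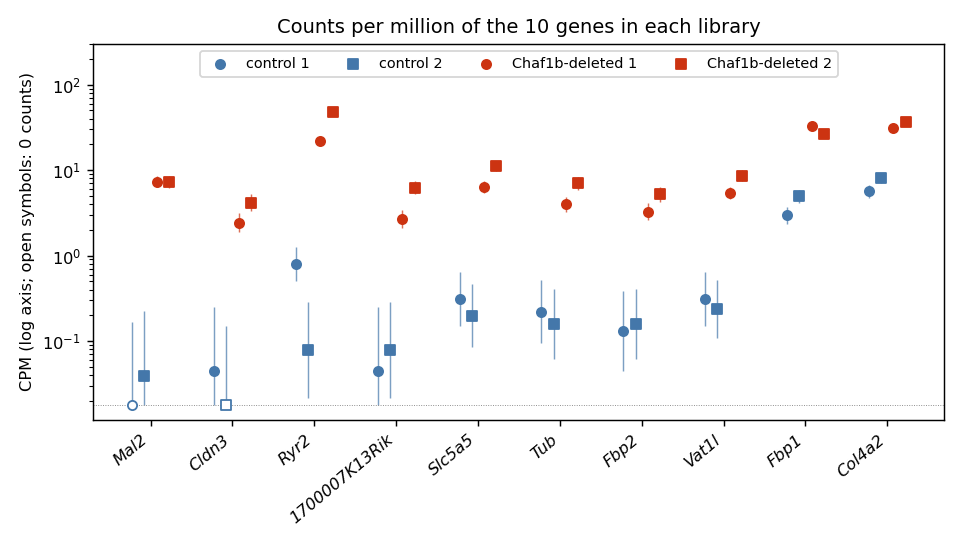
CPM of the 10 genes in each of the 4 libraries on a log axis, with control in blue, Chaf1b-deleted HSPCs in red, circles for replicate 1 and squares for replicate 2. Vertical bars are 95% Wilson intervals of the share of counts, which cover counting error only and are cut off at the dotted line, where open symbols mark 0 counts. Both deleted libraries lie above both control libraries for each gene, with Mal2 between 0 and 0.0394 CPM in control and at 7.31 to 7.35 CPM after deletion.

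Mal2 and Cldn3, which encode membrane proteins of polarised epithelium, had the lowest mean control CPM of the set. Mal2 (ENSMUSG00000024479, chr15:54402921-54434401, + strand, coordinates of NCBIM37, the Ensembl form of mm9) encodes a four-helix membrane protein of the MAL family that works in transport across epithelial cells. In control HSPCs 0 and 1 counts of Mal2 were found, and after deletion 173 and 135. The deleted libraries lay at 7.35 and 7.31 CPM, equal within counting error, and far above both controls. The pooled ratio of CPM was 353, with a 95% exact counting interval from 62.9 to 13988, because it rests on 1 control count. The fitted log2 fold change was 8.15 ± 0.75 (SE, n = 2 per group).

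Cldn3 (ENSMUSG00000070473, chr5:135462084-135463342, + strand) encodes claudin 3, a strand-forming protein of the tight junction that seals epithelial cells to each other. This gene of a single exon had 1 and 0 counts in control and 57 and 77 in deleted HSPCs, or 0.0440 and 0 CPM against 2.42 and 4.17 CPM. The deleted libraries differed from each other by 1.72-fold, and both were far above control. The pooled ratio was 154, with an interval from 27.1 to 6111 on 1 control count, and the fitted log2 fold change 6.96 ± 0.89. The bases before its start, chr5:135461834-135462083 of NCBIM37, are shown with CG pairs in capitals, and the CpG ratio (given further on) was near the median of all promoters:
Cldn3: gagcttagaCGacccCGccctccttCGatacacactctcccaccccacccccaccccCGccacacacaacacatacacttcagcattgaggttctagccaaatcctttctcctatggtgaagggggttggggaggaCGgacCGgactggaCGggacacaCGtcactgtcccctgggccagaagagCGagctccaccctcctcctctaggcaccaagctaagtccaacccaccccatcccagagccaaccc

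Slc5a5 (ENSMUSG00000000792, chr8:73406788-73416656, - strand) encodes the sodium-iodide symporter, which concentrates iodide in the thyroid. It had 7 and 5 counts in control and 149 and 206 in deleted HSPCs, or 0.308 and 0.197 CPM against 6.33 and 11.2 CPM. The groups did not overlap, and the pooled ratio was 33.9 (19.2 to 66.2, exact counting interval), with a fitted log2 fold change of 5.09 ± 0.53. The bases before its start, chr8:73416657-73416906 on the minus strand, form the member promoter with the highest CpG ratio (given further on), and are shown with CG in capitals:
Slc5a5: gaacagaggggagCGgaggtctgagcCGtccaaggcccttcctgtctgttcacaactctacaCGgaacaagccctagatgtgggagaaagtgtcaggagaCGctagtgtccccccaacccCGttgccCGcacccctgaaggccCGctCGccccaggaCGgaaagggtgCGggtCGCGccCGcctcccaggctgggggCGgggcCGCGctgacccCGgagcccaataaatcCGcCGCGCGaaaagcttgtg

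Vat1l, Tub and Ryr2 are described next, as genes best known from nerve and muscle. Vat1l (ENSMUSG00000046844, chr8:116729512-116897971, + strand) encodes a relative of the vesicle amine transport protein VAT1. Vat1l had 7 and 6 counts in control and 127 and 159 in deleted HSPCs, or 0.308 and 0.236 CPM against 5.40 and 8.61 CPM. The pooled ratio was 25.2 (14.5 to 47.9), and the fitted log2 fold change 4.67 ± 0.51.

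Tub (ENSMUSG00000031028, chr7:116154339-116177974, + strand) encodes tubby, which carries membrane proteins into cilia of neurons and whose loss causes obesity and sensory decline in mice. Tub had 5 and 4 counts in control and 94 and 129 in deleted HSPCs, or 0.220 and 0.157 CPM against 3.99 and 6.98 CPM. The pooled ratio was 28.4 (14.7 to 62.9), and the fitted log2 fold change 4.83 ± 0.57. Both Vat1l values lay above both Tub values in control CPM, and neither gene overlapped between the groups. The stretch before its start, chr7:116154144-116154338, is shown because it is dense in CG pairs, in capitals, and holds the only match among the members to the ETS-type motif CCGGAAG, here on the opposite strand:
Tub: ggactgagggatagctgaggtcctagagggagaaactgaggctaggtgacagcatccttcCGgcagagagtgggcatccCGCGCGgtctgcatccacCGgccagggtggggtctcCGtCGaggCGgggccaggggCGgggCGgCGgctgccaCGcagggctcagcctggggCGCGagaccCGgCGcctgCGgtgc

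Ryr2 (ENSMUSG00000021313, chr13:11645370-12199212, - strand), with 105 exon blocks, encodes the calcium release channel of the sarcoplasmic reticulum in heart muscle, also found in brain. It had 18 and 2 counts in control and 522 and 881 in deleted HSPCs, or 0.792 and 0.0787 CPM against 22.2 and 47.7 CPM. The deleted libraries were far above both controls, but the spread within each group was wide. Control replicate 1, the library with counts on 39.7% of olfactory receptor genes, held 18 of the 20 control counts, and the part of that library's background in them was not tested. The pooled ratio was 80.4 (51.9 to 132), and the fitted log2 fold change 6.33 ± 0.76. Without control replicate 1 it was 8.69, and without control replicate 2 it was 5.43. In CPM, Ryr2 was the most abundant of the 10 genes in deleted replicate 2, but its exons span 18.2 kb in all.

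The fructose-bisphosphatase genes lie in tandem on chromosome 13, 6.35 kb apart on the minus strand. Both enzymes remove a phosphate from fructose 1,6-bisphosphate in gluconeogenesis, Fbp1 mainly in liver and kidney and Fbp2 mainly in muscle. Fbp1 (ENSMUSG00000069805, chr13:62966113-62989642) had 67 and 125 counts in control and 783 and 490 in deleted HSPCs, or 2.95 and 4.92 CPM against 33.3 and 26.5 CPM. Fbp1 was thus not silent in control cells, and it was the gene with the clearest excess in deleted replicate 1 over deleted replicate 2. Its pooled ratio was 7.60 (6.52 to 8.89), and its fitted log2 fold change 2.96 ± 0.35. Fbp2 (ENSMUSG00000021456, chr13:62938244-62959760) had 3 and 4 counts in control and 77 and 96 in deleted HSPCs, or 0.132 and 0.157 CPM against 3.27 and 5.20 CPM. Its pooled ratio was 28.3 (13.5 to 71.5), and its fitted log2 fold change 4.82 ± 0.58. Of the pair, Fbp1 was the more abundant and Fbp2 the one with the greater relative difference, and no exonic stretch of 31 bases was shared between them. The bases before each start, chr13:62989643-62989892 for Fbp1 and chr13:62959761-62960010 for Fbp2, are shown to compare the pair, with CG in capitals:
Fbp1: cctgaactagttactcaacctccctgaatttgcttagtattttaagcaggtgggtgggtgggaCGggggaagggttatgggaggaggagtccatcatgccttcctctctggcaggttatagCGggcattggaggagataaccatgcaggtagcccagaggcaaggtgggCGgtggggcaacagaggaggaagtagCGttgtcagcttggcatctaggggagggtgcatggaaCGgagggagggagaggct
Fbp2: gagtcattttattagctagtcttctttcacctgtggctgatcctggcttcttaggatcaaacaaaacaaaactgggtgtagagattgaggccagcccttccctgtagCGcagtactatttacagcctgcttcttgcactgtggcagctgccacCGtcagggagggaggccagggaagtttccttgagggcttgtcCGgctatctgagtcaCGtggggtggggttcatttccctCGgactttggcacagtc

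Col4a2 (ENSMUSG00000031503, chr8:11312805-11449287, + strand) encodes the alpha 2 chain of collagen IV, the network-forming collagen of basement membranes. It had 129 and 207 counts in control and 740 and 683 in deleted HSPCs, or 5.67 and 8.15 CPM against 31.4 and 37.0 CPM. Col4a2 had the highest control CPM of the 10 genes and the smallest fold, with a pooled ratio of 4.85 (4.31 to 5.48) and a fitted log2 fold change of 2.33 ± 0.27. Few or no control counts is therefore not a fair description of Col4a2 or of Fbp1. Its start overlaps the first exon of Col4a1, which is read in the other direction.

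1700007K13Rik (ENSMUSG00000026831, chr2:28317521-28321852, - strand) is a protein-coding gene known by its cDNA clone name. It had 1 and 2 counts in control and 63 and 115 in deleted HSPCs, or 0.0440 and 0.0787 CPM against 2.68 and 6.23 CPM. Its pooled ratio was 68.0 (22.9 to 333) on 3 control counts, and its fitted log2 fold change 6.03 ± 0.74. The deleted libraries differed by 2.33-fold, the widest such gap among the 10 genes.

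Per kilobase of exon, the scale on which different genes can be compared, the mean levels in deleted HSPCs ran from 17.6 CPM per kb for Fbp1 to 0.793 for Tub. Col4a2 followed Fbp1 with 5.17, then 1700007K13Rik with 4.61, Fbp2 with 3.20, Slc5a5 with 2.99, Mal2 with 2.64, Cldn3 with 2.62, Ryr2 with 1.92 and Vat1l with 1.28 CPM per kb. In 8 of the 9 steps of this order the ranges of the neighbouring genes over the deleted libraries overlapped, the exception being Fbp1 above Col4a2. In control HSPCs the mean levels ran from 2.31 CPM per kb for Fbp1 to 0.00709 for Mal2. Among 20914 protein-coding genes ranked by this level, Fbp1 moved from percentile 55.1 to 83.3, Col4a2 from 49.3 to 63.2 and Mal2 from 11.2 to 55.5, while Tub reached 46.2. Apart from Fbp1, the genes thus sat near the middle of the ranking of protein-coding genes after deletion, not among abundant transcripts.

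**Figure D2:**
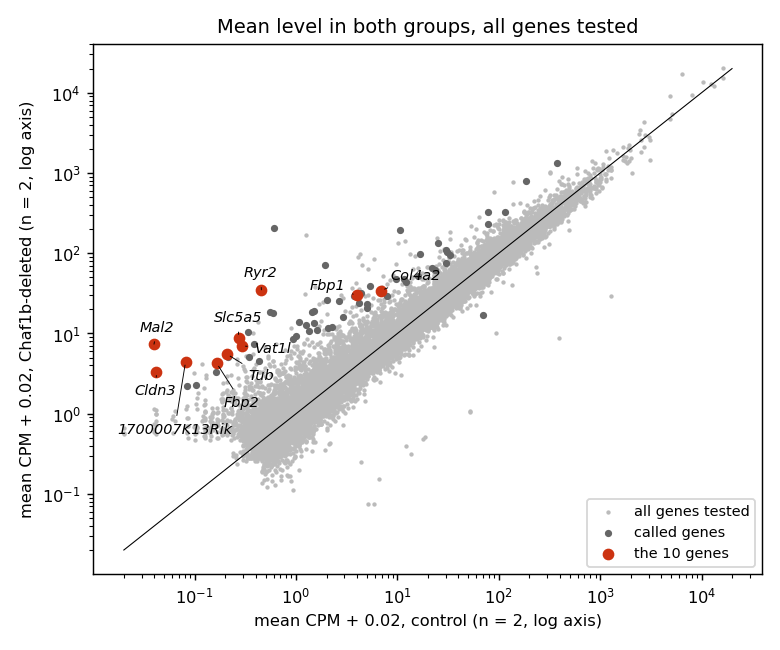
Mean CPM in Chaf1b-deleted against control HSPCs (n = 2 each) for the 16500 genes tested, on log axes after adding 0.02 CPM, with called genes in dark grey and the 10 genes in red. The line marks equal levels. Mal2 and Cldn3 lie at the left edge, and Fbp1 and Col4a2 nearest to the line among the 10 genes.

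Within the deleted group, 8 of the 10 genes had more CPM in replicate 2 than in replicate 1, with a median ratio of 1.66 over the 10 genes and of 1.16 over all genes tested. For Ryr2 the ratio was 2.15, with a counting interval from 1.93 to 2.40. For Fbp1 the order was the opposite, with a ratio of 0.798 (0.711 to 0.894), and for Mal2 the ratio was 0.995 (0.788 to 1.25). For 9 of the 10 genes the interval left out 1. Part of this is the offset between the libraries, since the median over all genes tested was 1.16 and not 1. The interval of Col4a2, 1.06 to 1.31, covered that median. Replicate 1 is the library with the high Xist and interferon-stimulated counts, and it had the lower level of most of these genes.

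To set the genes among all others, the profile of at most 0.5 CPM in each control library, at least 1 CPM in each deleted library and at least a 4-fold gap was counted over all identifiers. It was met by 64 genes of the 27501 that were low in control, or 0.233%, and 57 of the 64 were protein-coding. The profile turned around, low in deleted and present in control, was met by 0 of 27076. Of the 10 genes, 7 met it, while Ryr2 missed it through its 0.792 CPM in control replicate 1, and Fbp1 and Col4a2 through their control levels. Ordered by the lower of the deleted libraries, Mal2 was at rank 2, Slc5a5 at 3, Vat1l at 5, Tub at 8, Fbp2 at 11, 1700007K13Rik at 18 and Cldn3 at 23 of the 64. The genes most like them by this order that are not members were Hspa1a, Apoa1, Abo, Serpina12 and Nfatc4. Hspa1a, an inducible heat shock protein gene, had 10 and 5 counts in control and 249 and 190 in deleted HSPCs. Apoa1, the main protein of high-density lipoprotein, had 6 and 12 counts against 136 and 162. The other three had 2 to 11 counts in each control library and 82 to 116 in each deleted library.

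Genes of the same families and pathways were not picked by their counts, but their lists were drawn up with earlier results of these data known. The shares below therefore describe these lists beside all genes tested, and are not an independent test. Of 140 listed genes, 139 were found and 92 tested, and 0 were called changed by edgeR's quasi-likelihood test, where 0.37% of all genes were called higher and 0.00606% lower. At an unadjusted p-value under 0.05, 21 were higher and 1 was lower, which is 22.8% and 1.09% of the 92 against 9.15% and 3.1% of all genes tested. Some of the 21, Cldn4 and Nid1 among them, passed the count filter only through their deleted libraries. By edgeR's exact test 11 were called higher and by DESeq2 7, where these tools called 3.25% and 2.86% of all genes tested higher. The median log2 fold change of the 92 genes was 0.11.

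For the claudins and their tight junction partners, 15 of 26 were tested and 7 had an unadjusted p-value under 0.05, all higher. Cldn4, the claudin gene next to Cldn3, had 2 and 1 counts in control and 18 and 11 in deleted HSPCs, a pooled ratio of 11.1 (3.43 to 56.8) and an adjusted p-value of 0.171. Cldn10 had 3 and 2 against 18 and 24 counts, with an adjusted p-value of 0.140. Of the 7, Cldn4, Cldn10, Cldn23 and Ocln passed the count filter only through their deleted libraries. A gene of this kind could be tested only if it was higher there, so its direction was fixed in advance. The median log2 fold change of the tested junction genes, such genes included, was 0.88. For the MAL family, 8 genes were tested with a median of 0.15, and the founding member Mal had 1 count in all libraries together. The 2 MAL family genes farthest from 0 were Marveld1 at 0.54 and Cmtm6 at 0.52, on the log2 scale.

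Among sodium-solute symporters and genes of thyroid hormone synthesis, 8 of 24 were tested and the median was -0.43. Thyroglobulin (Tg), the protein on which thyroid hormone is built, had 226 and 373 counts in control and 825 and 813 in deleted HSPCs, a log2 fold change of 1.70 ± 0.26 and an adjusted p-value of 0.0555, the lowest of the related genes. Slc5a11 was at -1.18, and Slc5a6, the multivitamin transporter, at -0.15. Of the thyroid transcription factors, Nkx2-1 and Foxe1 had 0 counts in both deleted libraries, while Pax8 had 117 and 210 counts in control and 244 and 137 in deleted HSPCs, with overlapping CPM.

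Tubby's relatives Tulp2, Tulp3 and Tulp4 were at 1.09, 1.09 and 0.69 on the log2 scale with none called, and Tulp1, with 6 and 3 against 10 and 18 counts, was below the filter. Vat1, the abundant relative of Vat1l, had 3952 and 4596 counts in control and 4046 and 2817 in deleted HSPCs, at -0.09. For calcium release, 16 of 22 genes were tested with a median of -0.02. Ryr1, the skeletal muscle channel, had 62 and 110 counts against 265 and 208, with a log2 fold change of 1.70 ± 0.37 and an adjusted p-value of 0.123. Ryr3 was at -0.68, and Casq2, the calcium store protein of heart muscle, had 0, 0, 1 and 1 counts.

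For gluconeogenesis and fructose-bisphosphate turnover, 17 of 21 genes were tested, the median was -0.09 and 0 had an unadjusted p-value under 0.05 in the upward direction. Pfkm, whose enzyme makes fructose 1,6-bisphosphate, was at -0.73 and Pcx, pyruvate carboxylase, at 0.59. Pck1 and G6pc, the forms of their enzymes best known from liver and kidney, had 1 to 6 and 1 to 5 counts in each library. Pck2, the mitochondrial form, had 1273 and 1591 counts in control and 1025 and 794 in deleted HSPCs. In the basement membrane and collagen-processing list, 8 of 24 tested genes had an unadjusted p-value under 0.05, all higher, and the median of the list was 0.58. Serpinh1, the collagen chaperone HSP47, had 0 and 18 counts in control and 277 and 152 in deleted HSPCs, with an adjusted p-value of 0.113. Nid1, which links laminin to collagen IV, had 4 and 5 against 26 and 70 counts, with an adjusted p-value of 0.114. Nid1, too, passed the count filter only through its deleted libraries. Serpinh1, with 0 counts in control replicate 1, could not have passed that filter without a deleted library. Col4a1, Lamb2 and Tg, like Col4a2, Fbp1, Fbp2, Ryr2 and Tub, are on a list the study chose on these libraries together with others from another cell model, so their direction here is not independent evidence.

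**Figure D3:**
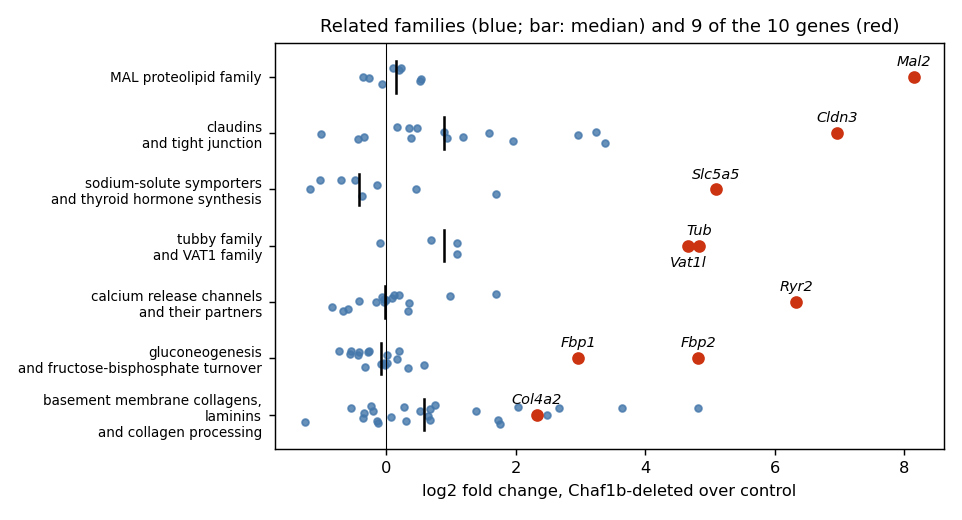
Fitted log2 fold change of the tested genes in 7 lists of related genes (blue, black bar at the median of each list) and of 9 of the 10 genes beside their own families (red). 1700007K13Rik has no family list. The medians run from -0.43 to 0.89, and for the collagen list alone do blue points lie to the right of the red one.

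Genes beside the 10 genes on the chromosome were compared in the same fit. Apart from Fbp1 and Fbp2, which adjoin each other, 23 genes were next to or overlapped a member, 18 were tested and 0 were called changed by the quasi-likelihood test. At an unadjusted p-value under 0.05, 6 were higher (Nov, Cldn4, Lmo1, Irs2, Rab20 and Col4a1) and 2 lower (Ccdc124 and Mtr), against 9.15% and 3.1% of all genes tested. Of these, Cldn4 passed the count filter only through its deleted libraries. By edgeR's exact test 3 (Cldn4, Irs2 and Col4a1) were called higher and by DESeq2 2 (Irs2 and Col4a1), against 3.25% and 2.86% of all genes. The median of the 18 was 0.40 on the log2 scale, with a range from -0.78 to 3.37. Col4a1, whose start lies 21 bases from that of Col4a2 on the opposite strand, came closest to its partner, with 45 and 103 counts in control and 309 and 469 in deleted HSPCs, a log2 fold change of 2.67 ± 0.45 and an adjusted p-value of 0.0694. The alpha 1 and alpha 2 chains assemble into one collagen IV molecule, and this pair had similar fold changes.

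The other neighbours named here lay closer to 0. Mrps2, whose start lies 1734 bases from that of 1700007K13Rik, was at -0.11. Beside Slc5a5, Ccdc124 was at -0.78. Beside Tub, the translation factor gene Eif3f was at 0.08, and Ric3, which overlaps Tub, had 15 and 41 counts in control and 27 and 53 in deleted HSPCs. Mtr and Chrm3, on either side of Ryr2, were at -0.53 and 0.25. Nov, next to Mal2, was at 0.93 with an adjusted p-value of 0.257, and Abhd11, on the other side of Cldn3 from Cldn4, at -0.39. Nudt7 beside Vat1l was at -0.34, 2010111I01Rik beside Fbp1 at 0.19 and 6720489N17Rik beside Fbp2 at 0.56. Whether counting used the strand is not given in the sources used here, so reads of Tub and Ric3, or of Col4a2 and Col4a1, cannot be told apart where these genes overlap.

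**Figure D4:**
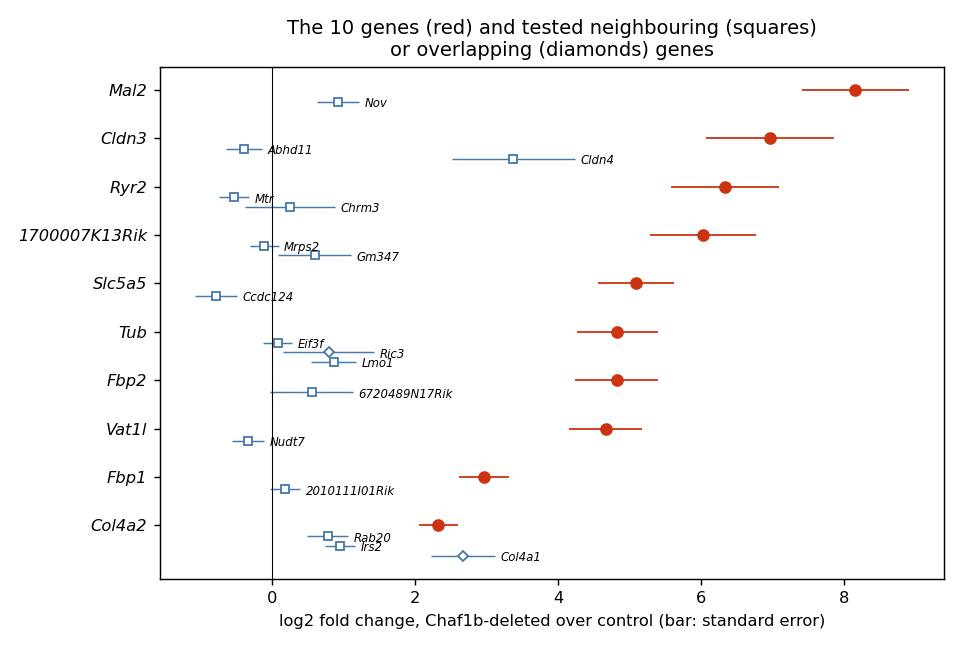
Fitted log2 fold change with its standard error for the 10 genes (red circles) and for tested genes next to them (open squares) or overlapping them (open diamonds), n = 2 libraries per group; 1 tested neighbour is not shown. Col4a1 at 2.67 and Cldn4 at 3.37 are the only neighbours shown above 1.

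Of the 10 genes, 9 had an entry in the RefSeq promoter table (build GRCm38.p6), which covers 250 bases before to 50 after each start. The printed stretches were placed on NCBIM37 by exact match. The member promoters did not share one base composition. The CpG ratio, the number of CG pairs over that expected from the C and G content, was 0.862 for Slc5a5, 0.835 for Tub, 0.818 for Col4a2 and 0.650 for Vat1l. It was 0.566 for Ryr2, 0.476 for 1700007K13Rik, 0.353 for Cldn3 and 0.292 for both Fbp2 and Fbp1. The median over all 32851 promoters was 0.384, and 4 of the 9 member promoters had at least 0.6, as did 35.8% of all. The printed stretches show this range, from 21 CG pairs before Slc5a5 to 5 each before Fbp1 and Fbp2.

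Motifs were searched on both strands of these 300 bases. CCGGAAG, of ETS type, was found in 1 of 9 member promoters (Tub, 194 bases before the RefSeq start) and in 8.86% of all. AGATAA, of GATA type, was found in 1 (Fbp1, 116 bases before the start) and in 11.2% of all. The C/EBP-type motif TTGCNNAA, the interferon-stimulated response element (ISRE) and TATAAA were in 0 of the 9, against 10.8%, 3.44% and 13.6% of all promoters. No motif searched was therefore shared by more than 1 of the 9 stretches.

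**Figure D5:**
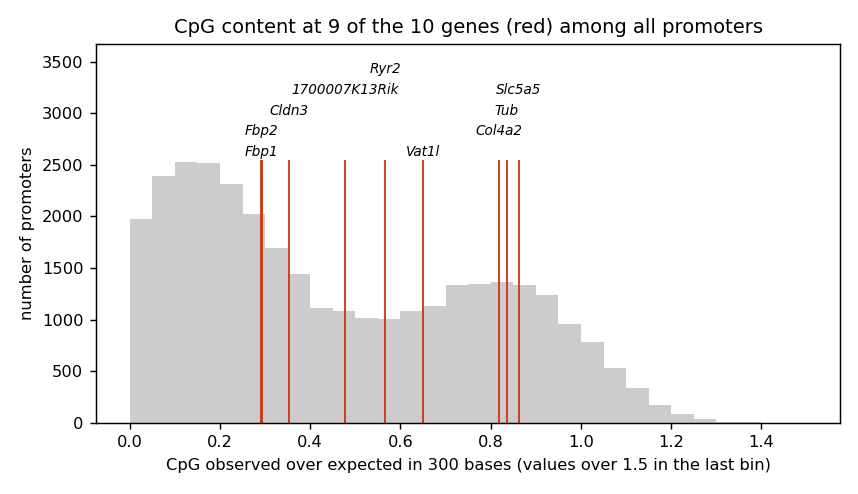
Number of RefSeq promoters (grey bars, 32851 in all) by CpG observed over expected in 300 bases, with red lines for 9 of the 10 genes. The lines spread from 0.292 (Fbp1 and Fbp2) to 0.862 (Slc5a5), on both sides of the median of 0.384.

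The tissues named by these genes were checked by their own markers. Of 10 hepatocyte markers 3 were tested. All 3 had both deleted libraries above both controls (21.4% of all genes tested), and 2 were higher at an unadjusted p-value under 0.05 (9.15% of all). Only Apoa1 was called higher, with a log2 fold change of 4.28 ± 0.51. Its adjusted p-value was 0.0330 in the quasi-likelihood test, where 0.37% of all genes were called higher. With 6 and 12 control counts, Apoa1 needed its deleted libraries to pass the count filter. Over the alternatives its adjusted p-value ran from 1.46e-12 to 0.0705, and the call was lost with library size only (0.0558) and with the replicate block (0.0705). The hepatocyte list summed to 4.05 and 3.50 CPM in control and 11.9 and 15.3 CPM in deleted HSPCs, while Alb, Ahsg, Tat, Cyp3a11 and Serpina1a had at most 3 counts in any library. Epithelial markers, 8 of 12 tested with none called, summed to 71.9 and 86.9 CPM in control and 96.6 and 89.9 CPM in deleted HSPCs. Epcam, an epithelial adhesion protein, had 16 and 22 against 111 and 86 counts with an adjusted p-value of 0.0773, and Krt19 and Elf3 had at most 3 counts in any library. For cardiac and skeletal muscle, 3 of 12 were tested with none called, and the sums were 19.6 and 28.6 against 11.5 and 21.7 CPM, with Myh4 at most at 3 counts. Neuronal markers summed to 5.15 and 4.96 against 4.25 and 5.85 CPM, with 2 of 10 tested and none called. The muscle and neuronal sums overlapped between the groups. Ryr2, Tub and Vat1l did not, but the way they were chosen fixed this.

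Markers of other cells that a CD117+ culture can hold were read in the same way. As background, 9.15% of all genes tested reached an unadjusted p-value under 0.05 upward in the quasi-likelihood test, and 3.1% downward. Endothelial markers summed to 232 and 248 CPM in control and 296 and 298 CPM in deleted HSPCs. Most of that sum was Pecam1, with 10842 pooled counts in control and 10875 in deleted HSPCs, a pooled ratio of 1.15. Emcn and Cldn5, with 10 against 6 and 7 against 2 pooled counts, went the other way, within counting error. Of the 10 endothelial markers, 7 were tested, none was called and 5 had an unadjusted p-value under 0.05, all upward. Cdh5 and Robo4, with 6 and 4 pooled control counts, could pass the count filter only through their deleted libraries. Their direction, where tested, was therefore fixed in advance. Megakaryocyte markers summed to 191 and 180 against 247 and 407 CPM. Of these, 10 of 10 were tested, none was called and 5 had an unadjusted p-value under 0.05, again all upward. Both sums were thus higher in both deleted libraries, and the part of such cells in the levels of the 10 genes was not tested. Fibroblast markers summed to 42.4 and 151 against 50.6 and 97.3 CPM, with Fn1 alone at 16.4 and 139 against 27.1 and 52.3 CPM. Of the 6 fibroblast markers tested none was called, and 2 were higher at an unadjusted p-value under 0.05. These were Pdgfra, with 1 and 2 against 19 and 27 counts, and Col1a1, with 50 and 31 against 128 and 71 counts, while Dcn and Lum had at most 3 counts in any library. Pdgfra passed the count filter only through its deleted libraries. Macrophage markers summed to 2020 and 3373 against 3908 and 2984 CPM. Of the 10 progenitor markers, Flt3, a cytokine receptor of early progenitors, rose from 106 and 135 counts to 454 and 419, with a log2 fold change of 2.09 and an adjusted p-value of 0.0383. Over the alternatives that value ran from 5.63e-08 to 0.0960, and the Flt3 call was lost with DESeq2's size factors (0.0503), library size only (0.0585), at least 10 counts in every library (0.0651) and the replicate block (0.0960). The progenitor list summed to 7031 and 7178 against 6482 and 5143 CPM. Of its 10 genes, all tested, 2 had an unadjusted p-value under 0.05 upward and 2 downward. The 2 downward were Myb and Elane, with adjusted p-values of 0.313 and 0.319.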

How the data were processed

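RNA was sequenced from 4 libraries of CD117+ HSPCs, 2 per group, grouped by their labels. The authors aligned reads to mm9 with STAR and made raw counts per gene with HTSeq-count, and these deposited counts were used as they are. The annotation release and the strand setting are not given in the sources used here. Symbols, exon lengths and coordinates came from the NCBIM37 annotation, and named identifiers held 96.9% to 98.4% of the counts. Reads that HTSeq-count assigned to no feature were left out of totals. They were 35.8% to 48.3% of the reads counted on genes, as no feature or as ambiguous. CPM is scaled to the total on genes, and 3 counts correspond to 0.118 to 0.162 CPM. Without molecular identifiers, the intervals describe counting error alone.

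Genes were tested with edgeR 4.0.16 (limma 3.58.1, R 4.3.3) by glmQLFit and glmQLFTest after TMM normalization and an expression filter with a minimum count of 10, and p-values were adjusted by Benjamini-Hochberg over the 16500 genes kept. Calls needed a 1.5-fold change and an adjusted p-value under 0.05, the study's thresholds. The p-values measure the spread between these samples only. Log2 fold changes are given with SE, and pooled ratios with exact 95% intervals. At most 2.56% of the exonic stretches of 31 bases of a member occur elsewhere in the genome. Alternatives were DESeq2's size factors, library size only, other count filters, edgeR's exact test, DESeq2 1.42.0, the replicate number as a block, and leaving out each library. The test was checked on simulated data.

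The 10 genes, the gene lists and the tests were chosen with earlier results of these data known. Genes named are the 10 genes, Chaf1b, genes beside or overlapping them, their direct paralogs, the genes called in each list or at most the 2 with the largest change where none was called, and the 5 other genes most alike in profile. Outside this rule, named after their values were seen, are Kit, Xist, Pax8, Pck2, Fn1, Pecam1, Emcn, Cldn5, Cdh5, Robo4, Cldn23, Ocln, Myb, Elane, Nkx2-1, Foxe1, Casq2, Pck1, G6pc, Lamb2, Telomerase-vert, Gm12260, Hspa1b, F11r and the markers with at most 3 counts. The values of 1 neighbouring gene and 1 related gene are not reported here by name.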

Additional observations from a re-analysis of the deposited data

How the results depend on the processing

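The 10 genes kept their direction under every alternative that tested them. Among their tested paralogs, Vat1 (-0.30 to 0.10) and Slc5a6 (-0.56 to 0.40), neither called, changed sign on the log2 scale. Calls depended on the settings, and the cause was not tested except where the filter removed genes. Against 61 genes higher and 1 lower, DESeq2's size factors gave 27 higher and library size only 30 higher. Without a low-count filter, 808 were higher and 79 lower of 31399 tested, with 12 related genes and 4 neighbours (Nov, Cldn4, Irs2 and Col4a1) called higher. With at least 10 counts in every library, 3 were higher (Telomerase-vert, Gm12260 and Hspa1b) and 0 lower of 14240, and of the 10 genes only Fbp1 and Col4a2 were kept, with a median log2 fold change of 2.64 and 0 called. The exact test gave 537 higher and 37 lower, with 11 related genes and 3 neighbours higher, and DESeq2 472 and 34, with 7 and 2. The same-numbered libraries had deviations correlated at 0.0181 over 2 pairs, and the labels do not say that numbers mark shared animals; with the replicate block, 14 genes were higher, 0 lower, and 0 of the 10 genes were called, at a median log2 fold change of 4.94. With library size only, 5 of the 10 genes were called (Mal2, Slc5a5, Vat1l, Fbp1 and Col4a2).

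Leaving out each library in turn, which assumes that the lone library varies like the other group, gave 125 to 331 genes higher and 6 to 42 lower, 1 to 6 related genes higher (F11r alone without deleted replicate 2), 1 neighbour higher (Nov without deleted replicate 2, otherwise Col4a1) and all 10 genes called, which their choice on these libraries fixes, with a median log2 fold change from 4.68 to 5.26. Deleted replicate 1 left out gave 125 and 6, and the others 280 to 331 and 24 to 42. The widest ranges were those of Mal2 (7.38 to 10.31), Cldn3 (6.03 to 9.19) and Ryr2 (5.43 to 8.69). With the control of 0 counts alone, against a floor of 3 counts in that library, Mal2 was at least 55.6-fold and Cldn3 at least 27.0-fold higher. The count of 64 genes with the profile was 29 at a limit of 0.25 CPM in control, with 5 of the 10 genes, and 29 at an 8-fold gap, with 7 of them; the turned profile stayed at 0.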
